A study of Mus musculus with 6 samples.

Results

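The precursors mir-204 (mmu-mir-204) and mir-211 (mmu-mir-211) were followed in small RNA libraries of whole mouse retina, with and without Dicer1 in rod photoreceptors. They are the rows of those names in the deposited table, 2 of 855 miRNA precursors, and both passed the filter on low values. There were 3 control and 3 cKO libraries, each from a pool of 6 retinas of mice aged 4 weeks on a mixed C57BL/6J - SJL background, collected between 8:00 and 10:00 in the morning. All mice carried floxed Dicer1 alleles (Dicerfl/fl). The cKO mice also carried the iCre75 transgene, in which a rod opsin promoter drives Cre recombinase, and the control littermates did not. Cones, inner retinal neurons, Müller glia, vessels and any adhering pigment epithelium are outside the reach of a rod-specific Cre. The labels describe the pools as biological replicates without naming the mice in each, so p values measure the spread between these pools only. Dicer1 mRNA was not analysed here, and no value of the deleted gene checks the genotype labels.

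Dicer cuts a hairpin precursor into a duplex whose arms, named 5p and 3p, can be loaded into Argonaute, and bases 2 to 8 of the loaded arm (the seed) pair with target mRNAs. The genes of miR-204 and miR-211 lie inside genes of the TRPM cation channel family. Trpm3 is transcribed in pigment epithelium and other ocular tissues, and Trpm1 in ON bipolar cells and in melanocytes. Both miRNAs are known for their high levels in retinal pigment epithelium, where they support the epithelial state. miR-204 is also found in Müller glia and inner retina, and in mouse retina both miRNAs are regulated by light together with the photoreceptor cluster of mir-183, mir-96 and mir-182.

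The mature sequences are shown because they decide how far the members can be told apart. They are from RefSeq (GRCm38.p6), which matched both members, with the seed in capitals.
miR-204-5p: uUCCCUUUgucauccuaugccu
miR-211-5p: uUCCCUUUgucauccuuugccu
miR-204-3p: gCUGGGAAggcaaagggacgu
miR-211-3p: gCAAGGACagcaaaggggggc
The 5p arms share their seed and 21 of 22 bases. Counted from the 5′ end of miR-204-5p, their only difference is A17U. The 3p arms have different seeds, and miR-204-3p had 7 mismatches at its best place in the mir-211 hairpin. Of 1738 mature sequences in the same table, 1 outside the pair has the 5p seed, miR-7670-3p, and 1 has the seed of miR-204-3p, miR-7684-5p. Neither was analysed here.

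The hairpins are shown with both mature arms in capitals, since the deposited values are per precursor and not per arm.
mir-204: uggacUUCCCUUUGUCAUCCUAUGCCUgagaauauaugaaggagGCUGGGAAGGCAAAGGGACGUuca
mir-211: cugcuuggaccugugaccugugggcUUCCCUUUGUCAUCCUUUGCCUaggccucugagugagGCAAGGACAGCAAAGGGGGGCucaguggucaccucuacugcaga
Of the 49 windows of 20 bases in the mir-204 hairpin, 6 occur in the mir-211 hairpin with at most 1 mismatch. They cover bases 1 to 27, and the 5p arm takes up bases 6 to 27. The hairpins are 68 and 106 bases long. On GRCm38 the mir-204 hairpin lies at chr19:22750605-22750672 on the plus strand, in intron 6 of the longest coding Trpm3 transcript (25 exons) and 17433 bases after its nearest upstream exon. The mir-211 hairpin lies at chr7:64205806-64205911 on the plus strand, in intron 6 of the longest coding Trpm1 transcript (27 exons) and 1212 bases after its nearest upstream exon. Both are in the sense direction of their host genes, and no annotated exon of another gene overlaps either. The authors' alignments used another build (mm9), so these positions serve as annotation only.

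Both members were about 1.9 times as high in cKO as in control retina as the values were deposited, in RPKM (reads scaled to the length of the precursor and to the total of the library). For mir-204 the controls 1 to 3 held 405807, 425143 and 468148 RPKM, and the cKO libraries 1 to 3 held 736707, 879289 and 909617 RPKM. For mir-211 the controls held 249508, 266118 and 290185 RPKM, and the cKO libraries 460650, 545519 and 566053 RPKM. Every cKO library lay above every control library for both members, which was so for 71.6% of the 461 tested precursors. Control 1 was the lowest control and cKO 1 the lowest cKO library for both.

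The mean ± SD of mir-204 over 3 libraries was 433033 ± 31911 RPKM without and 841871 ± 92329 RPKM with the transgene, which is 0.96 on the log2 scale (SE 0.11; limma adjusted p = 2.6e-04). For mir-211 the values were 268604 ± 20452 and 524074 ± 55878 RPKM, also 0.96 on the log2 scale (SE 0.11; limma adjusted p = 2.6e-04). The 2 results are not independent, because their 5p arms differ by a single base and their read numbers by 4.16% or less. Of all 461 precursors that averaged 10 RPKM or more, 320 or 69.4% also rose and 8 or 1.74% fell (limma, Benjamini-Hochberg adjusted p below 0.05). Because each value is a proportion of its library, a rise does not show more of a miRNA per retina. In whole retina fewer cells of a type and less RNA per cell cannot be told apart.

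**Figure D1:**
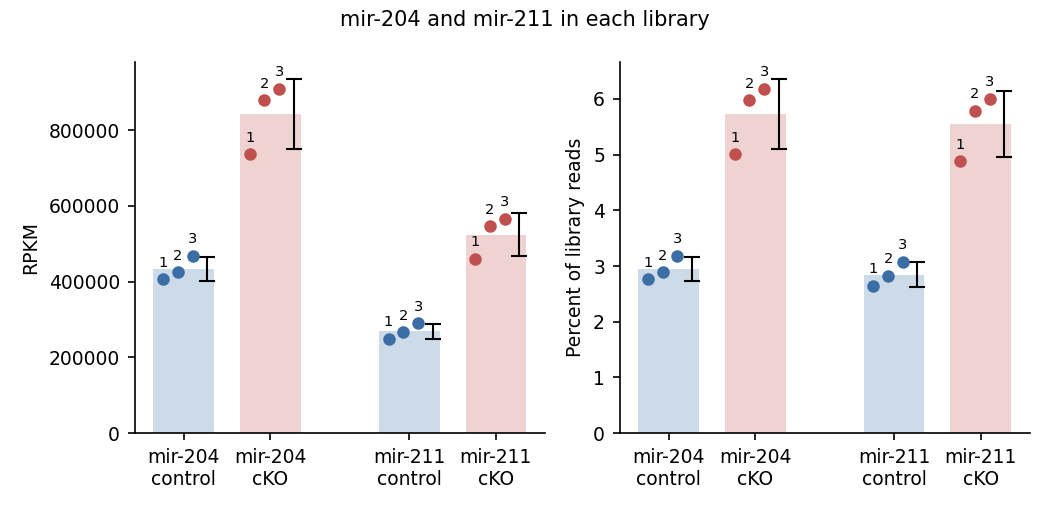
Levels of mir-204 and mir-211 in each library, in RPKM on the left axis and in percent of library reads on the right. Points are libraries with their replicate number, bars are group means and lines are ± SD (n = 3); the cKO points of mir-204 lie between 736707 and 909617 RPKM, above all controls.

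As a share of reads the pair came close to each other. The deposited values gave whole reads, from 5480940 to 7478237 in total per library. For mir-204 these were 206361, 199307 and 224790 reads in the controls and 346951, 413418 and 339018 reads in the cKO libraries. Its share was 2.76%, 2.89% and 3.18% of library reads in control and 5.01%, 5.98% and 6.19% in cKO retina. The mean ± SD of the share was 2.94% ± 0.217 against 5.72% ± 0.628, and the two-sided exact permutation test gave p = 0.1, the smallest that 3 against 3 can give. The share of mir-211 was 2.85% ± 0.217 against 5.56% ± 0.592 (SD, n = 3 each; exact permutation p = 0.1).

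Counting error was far below the spread between libraries. The Wilson 95% interval of the mir-204 share was 2.75% to 2.77% in control 1 and 6.17% to 6.21% in cKO 3, which leaves out any copying of molecules by PCR, because the reads carry no molecular identifiers. Between libraries the coefficient of variation of mir-204 was 7.37% in control and 11.0% in cKO retina, whereas counting alone gives 0.224% or less.

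Among the retinal miRNAs mir-204 was among the most abundant precursors per length in every library. It ranked 4, 5 and 4 of 855 in the controls and 4 in each cKO library. The precursors next to it in mean level were mir-181a-1 above, an inner retinal miRNA at 3162730 RPKM over all libraries, and mir-30a below, a broadly expressed miRNA at 422070 RPKM. mir-204 exceeded mir-30a in all 6 libraries. In controls 2 and 3 it lay close to mir-183 of photoreceptors (425143 against 432932 RPKM and 468148 against 466232 RPKM). In control 1 it lay above mir-183 (405807 against 230841 RPKM). Whether mir-204 and mir-183 differed in level within the controls was not tested.

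mir-211 changed its place between the genotypes. It ranked 11, 13 and 11 in the controls and 5 in each cKO library. Its neighbour mir-26a-2, another broadly expressed miRNA, stood at 283754, 339701 and 347602 RPKM in control and 412947, 508934 and 471708 RPKM in cKO retina. mir-211 therefore lay below mir-26a-2 in every control and above it in every cKO library. These are levels per length. The mir-211 hairpin is longer, so nearly equal reads give it a lower RPKM than mir-204. Reads that fit both members count at each, so the change of place cannot be assigned to miR-211 itself.

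The pair kept a nearly fixed ratio. Reads that fit both members count at each, so such a ratio cannot show whether 2 miRNAs moved together. Reads at mir-211 divided by reads at mir-204 came to 0.958, 0.976 and 0.966 in the controls and 0.975, 0.967 and 0.970 in the cKO libraries. In RPKM the ratio (mean ± SD of 3 libraries) was 0.620 ± 0.00556 in control and 0.623 ± 0.00246 in cKO retina, close to the ratio of hairpin lengths, 0.642. The groups overlapped, and the log2 ratio differed by 0.0057 between genotypes (exact permutation p = 0.6). Which of the 2 host genes gave rise to reads that fit both cannot be told apart in these values.

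A small part of the mir-204 signal was not matched at mir-211. Reads at mir-204 exceeded reads at mir-211 by 8578, 4834 and 7587 in the controls and by 8776, 13598 and 10153 in the cKO libraries. Where each read counts once per precursor, at least this many reads fitted mir-204 and not mir-211, and whether they are 5p or 3p reads is not recorded. They made up 0.115%, 0.0701% and 0.107% of library reads in control and 0.127%, 0.197% and 0.185% in cKO retina, so the groups did not overlap (1.74 times as high in cKO retina; exact permutation p = 0.1). This comparison was chosen after its values were seen. Among library reads other than mir-182 their share (mean ± SD) was 0.217% ± 0.0602 in control and 0.242% ± 0.0446 in cKO retina, and the groups overlapped (exact permutation p = 0.6). As a share of mir-204 reads they were 3.32% ± 0.867 and 2.94% ± 0.383 (SD, n = 3 each; exact permutation p = 0.6).

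**Figure D2:**
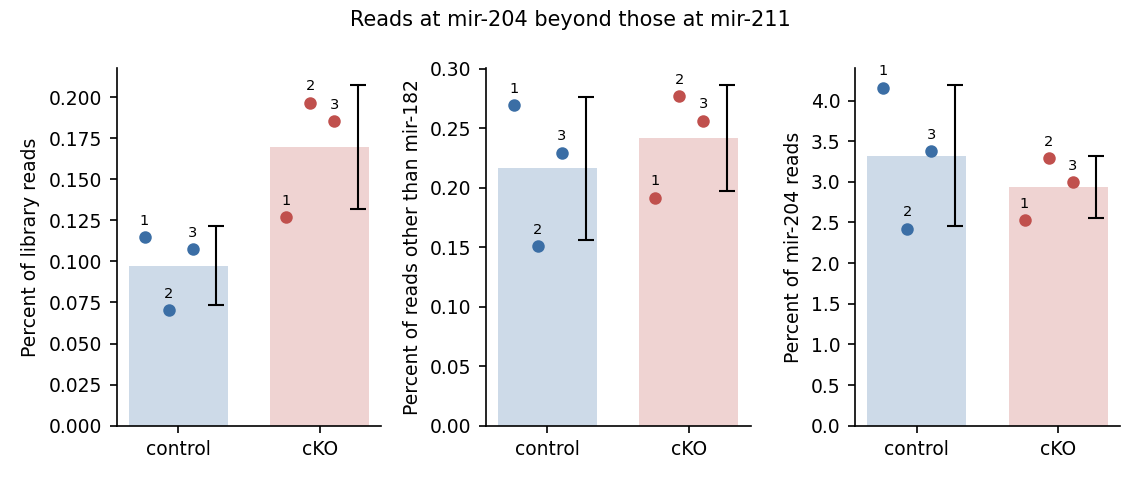
Reads at mir-204 minus reads at mir-211, in percent of library reads, of library reads other than mir-182, and of mir-204 reads. Points are libraries with their replicate number, bars are means and lines are ± SD (n = 3); the genotypes separate only in the left panel, where control reaches 0.115% and cKO starts at 0.127%.

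The rise of the pair was set beside the reads that mir-182 takes up. mir-182, the main miRNA of the light-regulated photoreceptor cluster, held 57.4%, 53.6% and 53.2% of library reads in the controls and 33.8%, 29.0% and 27.7% in the cKO libraries. The order of the 6 libraries in mir-204 share was the exact reverse of their order in mir-182 share; both are shares of the same totals. As a share of reads other than mir-182, mir-204 held 6.48%, 6.23% and 6.80% in control and 7.57%, 8.42% and 8.56% in cKO retina. All cKO libraries stayed above all controls, and the ratio of the means was 1.26 in place of 1.94 (exact permutation p = 0.1).

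With totals that leave out mir-182, mir-204 rose by 0.33 on the log2 scale (SE 0.078; limma adjusted p = 0.025) and mir-211 by 0.34 (SE 0.080; limma adjusted p = 0.025). Under that scaling 4.34% of the 461 precursors rose and 7.81% fell. With totals that leave out the 10 most abundant precursors the values were 0.44 (SE 0.071; limma adjusted p = 0.0067) and 0.45 (SE 0.075; limma adjusted p = 0.0073), where 12.4% rose and 6.29% fell. Median-of-ratios scaling, in which the typical precursor is made equal across libraries, ended the call of both members, at 0.22 (SE 0.091) and 0.23 (SE 0.093; limma adjusted p = 0.16 for each), where 2.17% rose and 9.98% fell. Quantile normalization gave mir-204 0.15 (SE 0.12; adjusted p = 0.51) and mir-211 0.57 (SE 0.067; adjusted p = 0.0030). It keeps only ranks, and mir-204 nearly kept its rank while mir-211 moved up. Under all of these scalings both values were above 0.

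**Figure D3:**
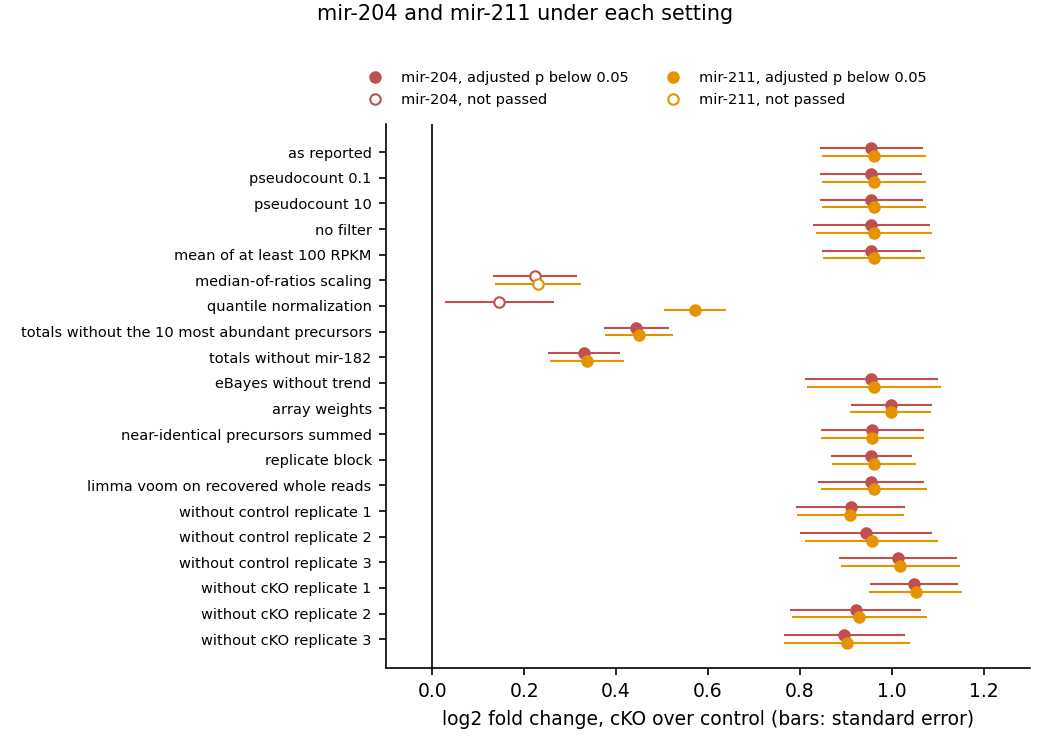
Log2 fold change of mir-204 and mir-211, cKO over control, under each processing setting. Points are limma estimates with bars of ± 1 standard error, filled where the adjusted p was below 0.05; the values stay above 0 in each row, near 0.96 for most and at 0.22 and 0.23 with median-of-ratios scaling.

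Among all tested precursors the pair stood somewhat above the middle. The median precursor had a log2 fold change of 0.74 (1.67-fold), so that mir-204 exceeded it by 0.22 and mir-211 by 0.22. The log2 fold change of mir-204 was larger than that of 71.6% of the 461 precursors and smaller than that of 130, whether or not these passed the test. Measured against the control mean for each cKO library alone, this percentage was 56.0 in cKO 1, 71.8 in cKO 2 and 80.9 in cKO 3. The place of mir-204 in the distribution thus varied between pools.

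**Figure D4:**
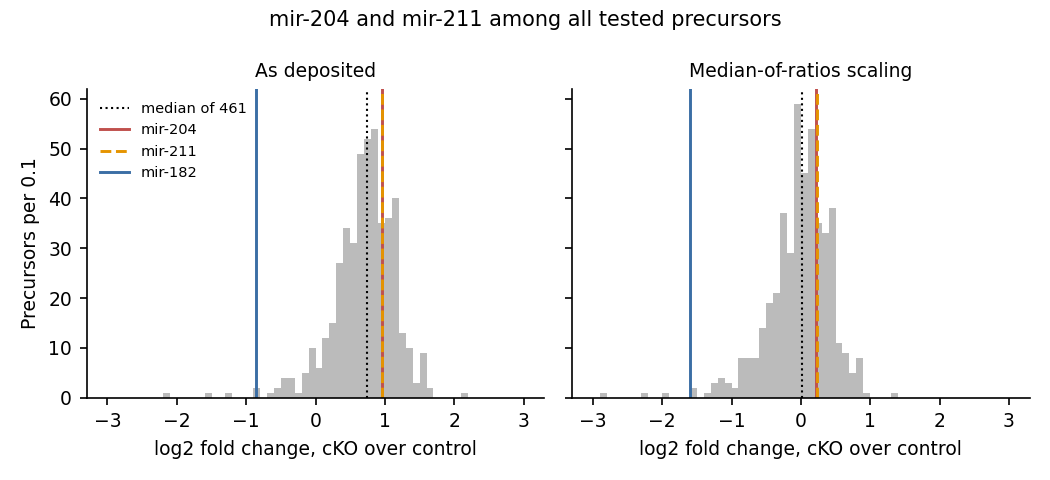
Number of precursors per log2 fold change (bins of 0.1), cKO over control, for values as deposited and after median-of-ratios scaling. Lines mark the median of the 461 tested precursors, mir-204, mir-211 and mir-182; the pair lies 0.22 above the median as deposited, and mir-182 lies at -0.86.

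Ratios of 2 miRNAs in the same library do not depend on the library total. mir-204 was therefore divided by each of the 10 most abundant other precursors, taking a single copy of near-identical ones. For 8 of the 10 the ratio was higher in every cKO than in every control library, and for 1 it was lower. Over all 459 other tested precursors the first was so for 30.3% and the second for 1.96%. The 10 exact permutation tests cannot go below p = 0.1 and none passes a threshold of 0.05.

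Among these 10 the widest changes were against mir-182 and mir-183 of the light-regulated cluster. The ratio of mir-204 to mir-182 was 0.0530, 0.0595 and 0.0660 in control and 0.163, 0.228 and 0.246 in cKO retina, a log2 difference of 1.82 (exact permutation p = 0.1). Against mir-183 it was 1.76, 0.982 and 1.00 in control and 1.89, 3.06 and 2.74 in cKO retina, where control 1 lay near cKO 1. Against mir-96, which is less abundant and not among the 10, it was 44.7, 29.2 and 38.7 in control and 70.6, 112.9 and 128.1 in cKO retina. In the fit itself mir-182 stood at -0.86 and mir-96 at -0.49, both called lower, and mir-183 at -0.11 did not pass (limma adjusted p = 2.4e-04, 0.048 and 0.68). These 2 calls of 3 stand beside 1.74% of all 461 precursors called lower, and the genotypes overlapped for mir-96 and mir-183. With median-of-ratios scaling all 3 of the cluster fell, at -1.59, -1.22 and -0.84 (adjusted p = 7.0e-05, 0.0042 and 0.040 for mir-182, mir-96 and mir-183), beside 9.98% of all precursors.

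Against other abundant miRNAs the differences were smaller. The log2 ratio to mir-30a was 0.66 higher in cKO retina, that to let-7g 0.62, to let-7f-2 0.55, to mir-22 0.45 and to mir-26a-2 0.43, each with no overlap between the genotypes. These are broadly expressed miRNAs, let-7 being tied to differentiated cells. Against the miR-181 family of the inner retina the change was the least: 0.24 for mir-181b-1 without overlap and 0.24 for mir-181a-2 with overlap (exact permutation p = 0.2). The ratio to mir-127, an imprinted miRNA of the Dlk1-Dio3 region, went the other way, from 2.78 ± 0.464 in control to 2.16 ± 0.306 in cKO retina (mean ± SD), a log2 difference of -0.36 (exact permutation p = 0.1).

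**Figure D5:**
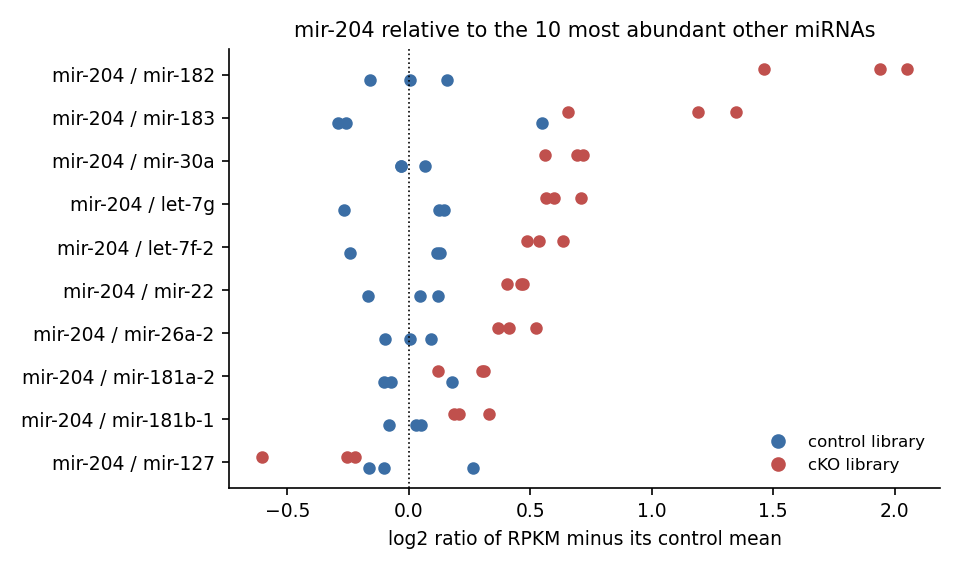
Log2 ratio of mir-204 to each of the 10 most abundant other miRNAs, minus the mean of that ratio over the controls. Points are libraries, blue for control and red for cKO; the cKO points lie to the right of all control points in 8 rows, overlap them for mir-181a-2 and lie to the left for mir-127.

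The precursors whose pattern was most like mir-204 were sought among 304 of at least 100 RPKM, by the Euclidean distance of log2 levels centred over the 6 libraries. The nearest 5 were mir-344-1, mir-344-2, mir-434, mir-376c and mir-3096a, at distances of 0.16 to 0.19. mir-211 lay at 0.021 and the median candidate at 0.61. The first pair are near-identical copies, and mir-434 and mir-376c belong to the imprinted Dlk1-Dio3 region. The imprinted mir-434 stood at 15240, 14774 and 15507 RPKM in control and 26125, 33172 and 31382 RPKM in cKO retina, with no overlap. The 5 rose 1.88- to 1.99-fold in the fit, and Pearson's r with mir-204 was 0.988 to 0.992 over 6 libraries. Both follow from picking the 5 by likeness in these same libraries. The genotype and the shared totals also take part in this description.

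Markers of other cell types give the setting of the pair, again read against the 69.4% of precursors that rose. Of inner retinal miR-181 precursors 4 of 4 rose (2 sets of near-identical copies), with a median log2 fold change of 0.71. Of the progenitor and glial precursors 5 of 6 rose (3 sets once near-identical copies are joined), with a median of 0.72. The 3 copies of mir-9 in this list, expressed in Müller glia and progenitors, stood at 0.72 each. In the neuronal list 6 of 9 rose (4 sets once copies are joined), with a median of 0.52. In that list mir-124-3, mir-124-1 and mir-124-2 of mature neurons did not pass, at -0.071, -0.071 and -0.070 (limma adjusted p = 0.68 each). The pair thus stood above the medians of these retinal lists, though below mir-138-1 and mir-138-2 of the neuronal list, at 1.54 each. These differences were not tested. The medians were -0.018, -0.012 and -0.21 after median-of-ratios scaling. No member of the first 2 lists passed under it, while 2 of the neuronal list rose and 3 fell, the copies of mir-124 at -0.80 each (limma adjusted p = 0.0047 to 0.0048).

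Most markers of vessels and blood also rose in the cKO pools as deposited, as did 69.4% of all 461 tested precursors. Of vessel and mural precursors 5 of 5 rose (4 sets once near-identical copies are joined). Their median of 0.64 was below the 0.74 of all tested precursors. Their summed level was 19236 to 35786 RPKM in control and 41860 to 55548 RPKM in cKO retina. The endothelial mir-126 rose 2.58-fold (SE 0.17 on the log2 scale; adjusted p = 3.1e-04), mir-143 of mural cells 1.56-fold with overlapping groups, and mir-145a 1.71-fold. Of blood precursors 4 of 5 rose, with a median of 0.89 and sums of 18629 to 21893 against 30380 to 36666 RPKM. Among these the red cell mir-486 rose 1.66-fold, the lymphocyte mir-150 2.07-fold and the leukocyte mir-142 1.85-fold. Of muscle precursors 2 of 4 rose, with a median of 0.60 and sums of 930 to 1622 against 1566 to 2451 RPKM; these were mir-133a-1 and mir-133a-2, near-identical copies at 1.57-fold each, while mir-1a-2 did not pass at 0.53. No marker of any list was at 0 in all libraries. The medians of the vessel, blood and muscle lists under median-of-ratios scaling were -0.091, 0.16 and -0.13, and mir-126 alone of these still passed.

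Epithelial markers bear on tissue next to the retina. Of 8 tested precursors of lens, cornea, iris and other surface epithelium 1 rose, mir-187 (1.80-fold; adjusted p = 0.0010), and the list median was 0.71. Their summed level was 10708, 3042 and 54871 RPKM in the controls and 26242, 61628 and 64259 RPKM in the cKO libraries, so the genotypes overlapped. Most of it was mir-184, of cornea and lens, at 8731, 2186 and 52002 RPKM in control and 23904, 57210 and 60098 RPKM in cKO retina (log2 fold change 2.12, SE 0.88; adjusted p = 0.052). mir-31 stood at 1.45 (SE 0.72; adjusted p = 0.091). Control 3 was the highest control and cKO 1 the lowest cKO library both in this sum and in mir-204. The lowest control was control 2 in the sum but control 1 in mir-204, so the orders of the controls differed. Without control 3 mir-204 stood at 1.01 and without cKO 1 at 1.05 on the log2 scale. These higher values follow from the place of both libraries in mir-204 itself, so they do not test the part of other tissue. No list of pigment epithelium miRNAs apart from the pair itself was set, and the part of adhering pigment epithelium or other tissue in the levels of mir-204 and mir-211 was not tested.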

How the data were processed

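The authors deposited RPKM values for 855 miRNA precursors in 6 libraries; the submitters' processing notes name Bowtie and mm9. The Bowtie version, the annotation, filters and the rule for multiply fitting reads were not given in the sources used here. Per the labels' protocols, each library took 1 µg of RNA and 11 rounds of PCR, was gel-selected, and all were sequenced in 1 run of 50 bases.

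RPKM times precursor length was a whole multiple of 1 step per library for 100.0% of 3888 values (tolerance 0.01 reads). This gave reads and library totals. The values checked are those of 648 precursors with RefSeq lengths and include zeros, which are whole in any case. Lengths came from RefSeq, otherwise from GENCODE, and 17 were inferred by making the reads whole. The sum of reads over precursors was 1.55 to 1.86 times the total, so reads that fit several precursors were counted at each. mir-30e and its antisense mir-30f had equal reads, so strand was not used there.

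Differences (cKO minus control) were fitted with limma 3.58.1 in R 4.3.3 (eBayes with trend) on log2(RPKM + 1), which understates changes of low precursors, on the 461 precursors averaging 10 RPKM or more. Tests were two-sided, with Benjamini-Hochberg adjustment over all of them. Shares and ratios were compared by exact permutation. Wilson intervals came from scipy 1.17.1. Near-identical precursors share a window of 20 bases with at most 1 mismatch on either strand. The fit was also run on simulated data with changes drawn evenly up and down. These libraries shifted mostly upward, so that run does not check the calls made here. Alternatives covered the pseudocount, filter, scaling, variance model, library weights, summed copies, voom on reads, a replicate block and each library left out.

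The members, lists and tests were chosen with earlier results of these data known. Named precursors are the pair, the light-regulated cluster, the 10 most abundant others, the 5 most alike, neighbours in level, seed sharers and up to 3 abundant members of each marker list. The copies of mir-138 were named besides, as the steepest of the neuronal list.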

Additional observations from a re-analysis of the deposited data

How the results depend on the processing

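The rise of both members kept its direction under every setting tried, and its call under each pseudocount, filter, variance model, weighting, summing of copies, voom on recovered reads and each library left out. Over the 6 fits without a library the log2 fold change was 0.90 to 1.05 for mir-204 and for mir-211 (adjusted p = 6.4e-05 to 0.0021), and over the variance models and weights the adjusted p of mir-204 was 1.2e-05 to 0.0032. The call ended with median-of-ratios scaling (0.22 and 0.23) and, for mir-204, with quantile normalization (0.15; adjusted p = 0.51). Under median-of-ratios scaling, leaving out each library gave 0.16 to 0.28 for mir-204 and 0.17 to 0.28 for mir-211, with 0.24 for both without control 3 (adjusted p = 0.12 to 0.40; chosen after seeing the data). Of 461 precursors 320 were called higher as deposited. That number was 10 with median-of-ratios scaling, 14 with quantile normalization, 57 without the 10 most abundant and 20 without mir-182. With copies summed it was 192 of 278 tested, and with a library left out 252 to 322. The number called lower, 8 as deposited, was 46, 31, 29 and 36 under those 4 scalings. It was 4 of 306 tested at a mean of at least 100 RPKM and 14 with array weights. With a library left out it was 4 to 12 (4 without control 2 or control 3, 5 without cKO 2 or cKO 3, 12 without control 1). Summing copies and the higher filter left fewer precursors to call. The cause of the other shifts was not tested.

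The difference in log2 ratio of mir-211 to mir-204 ran from -0.00055 (without control 1) to 0.012. Of 30 abundant comparators 21 did not overlap, against 9 of 10. The difference in mir-204 share ran from 2.55 to 3.14 points with a library left out, and the percentage of precursors that mir-204 outran from 63.9 to 75.2. Whether replicate numbers pair the libraries was not settled. Deviations of same-numbered libraries correlated at 0.19, 0.26 and 0.0093, and those of differently numbered ones at -0.217 to 0.048. Of the 6 libraries 4 correlated best with their own number. With the number as a replicate block mir-204 stood at 0.96 (adjusted p = 1.6e-04) and 338 precursors were called higher; with median-of-ratios scaling and the block the pair stood at 0.22 and 0.23 (adjusted p = 0.20). Depth did not limit the pair, with at least 194473 reads per library.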
